A study of Mus musculus with 3 samples.

Results

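The genes described are the dual-specificity MAP kinase phosphatases, 10 named members of the Dusp family. They were found as the non-control probes whose gene name on the array is Dusp1, Dusp2, Dusp4, Dusp5, Dusp6, Dusp7, Dusp8, Dusp10, Dusp14 or Dusp16. This gave 13 probes of the 41174 on the array, for 9 of the 10 genes; Dusp5, a nuclear phosphatase of ERK, has no probe under that name and is not analysed here. The family was picked with its ratios of conditional knockout over control already known, so those ratios are given as a description and carry no test. All 13 probes passed the filter on dim probes (well above background on all 3 arrays in at least 1 channel).

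RNA of whole ovaries from C57Bl/6J females was measured on 3 two-colour Agilent arrays. The conditional knockouts (cKO, Bmal1fxfxCresf-1) carry floxed Bmal1 alleles and Cre under the sf-1 promoter, which is active in steroid-producing cells of the gonads, and also in the adrenal and pituitary. The controls (Bmal1fxfx, labelled wild type) carry the same floxed alleles without Cre. All females were 10 weeks of age, and their ovaries were taken at Zeitgeber time 12, when the lights go off, at 3.5 days post copulation. On each array a pool of 3 cKO animals in cy3 was set against a pool of 3 controls in Cy5, so 9 animals of each genotype were read as 3 pools. The cKO labels of arrays 2 and 3 end in 2 and 3 in place of 1. These endings were taken as the array's number, since the sample titles and the design text give 1 genotype. No dyes were swapped, so dye and genotype cannot be told apart. Throughout, a ratio is the log2 ratio of cKO over control, given for arrays 1, 2 and 3 in that order and as mean ± SD (n = 3).

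MAP kinases are switched on when both a threonine and a tyrosine in their activation loop are phosphorylated, and the phosphatases of this family remove both phosphates. They are usually sorted by where they act and on what: Dusp1, Dusp2, Dusp4 and Dusp5 encode nuclear enzymes that are induced by the signals they end, Dusp6 and Dusp7 encode cytoplasmic enzymes selective for ERK, and Dusp8, Dusp10 and Dusp16 encode enzymes that prefer the stress kinases JNK and p38. Dusp14 encodes a small atypical member without the kinase-binding domain of the others. In the ovary, luteinizing hormone signals through cAMP and ERK at ovulation, and the phosphatases are part of the feedback on that signal.

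The arrays differed from one another, which bears on every value below. Spots well above background made up 67.4% to 69.1% in the cKO channel and 62.9% to 65.8% in the control channel, and the number of arrays limits the precision. Over the 17853 genes tested, the ratios of arrays 1 and 2 correlated with Pearson's r = 0.601, those of arrays 1 and 3 with r = 0.213, and those of arrays 2 and 3, which share a slide, with r = 0.00876; genes are not independent replicates. The targeted gene, Arntl (Bmal1), was at 0.06 ± 0.27 by its probe, whose place relative to the floxed part is not given in the sources used here, so it checks neither the deletion nor the labels. All 13 listed luteal and granulosa cell markers were measured above background in both genotypes. In whole ovaries, fewer cells of a type and less RNA per cell cannot be told apart.

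Promoter sequences are shown for the members whose cKO and control pools did not overlap (Dusp1, Dusp6, Dusp8 and Dusp16) and for Dusp2, which holds an E-box, since the deleted factor binds E-boxes and the ovulatory signal acts through cAMP response elements. They were taken from RefSeq (GRCm38.p6), which matched 9 of the 10 members, all but Dusp4. Each run is the 250 bases before the gene's start, 5′ to 3′ on the gene's own strand; capitals mark the E-box CACGTG and the cAMP response element (CRE) TGACGTCA. Dusp1 lies on the minus strand (chr17:26508473-26508722), Dusp2 on the plus strand (chr2:127335909-127336158), Dusp6 on the plus strand (chr10:99262981-99263230), Dusp8 on the minus strand (chr7:142095285-142095534) and Dusp16 on the minus strand (chr6:134792629-134792878). Dusp6 and Dusp16 hold neither motif and carry no capitals.
Dusp1: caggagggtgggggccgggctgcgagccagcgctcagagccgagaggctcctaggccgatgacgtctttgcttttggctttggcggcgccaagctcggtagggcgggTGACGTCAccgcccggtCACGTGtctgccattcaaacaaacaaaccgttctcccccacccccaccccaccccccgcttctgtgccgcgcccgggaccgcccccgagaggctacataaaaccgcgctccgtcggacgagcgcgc
Dusp2: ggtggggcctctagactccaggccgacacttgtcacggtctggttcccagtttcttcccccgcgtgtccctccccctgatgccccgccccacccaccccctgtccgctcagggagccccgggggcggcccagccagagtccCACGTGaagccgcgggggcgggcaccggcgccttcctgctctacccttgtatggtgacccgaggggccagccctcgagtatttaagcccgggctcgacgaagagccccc
Dusp6: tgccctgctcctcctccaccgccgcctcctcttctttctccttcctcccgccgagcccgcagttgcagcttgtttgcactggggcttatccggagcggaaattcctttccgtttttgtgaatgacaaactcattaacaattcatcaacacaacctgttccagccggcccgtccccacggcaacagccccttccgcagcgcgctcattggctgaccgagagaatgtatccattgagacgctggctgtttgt
Dusp8: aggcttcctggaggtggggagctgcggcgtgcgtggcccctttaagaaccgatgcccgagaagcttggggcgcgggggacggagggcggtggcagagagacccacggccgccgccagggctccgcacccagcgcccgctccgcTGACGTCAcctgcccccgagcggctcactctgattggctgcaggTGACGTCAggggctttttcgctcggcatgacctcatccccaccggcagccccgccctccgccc
Dusp16: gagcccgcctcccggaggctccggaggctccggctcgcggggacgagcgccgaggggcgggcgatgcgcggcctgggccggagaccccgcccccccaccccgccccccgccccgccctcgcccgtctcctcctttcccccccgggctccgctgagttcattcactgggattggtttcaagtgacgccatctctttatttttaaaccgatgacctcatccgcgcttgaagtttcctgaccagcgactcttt
Both motifs read the same on either strand and no copy overlaps another. The E-box was found once in Dusp1, beginning 126 bases before the start, and once in Dusp2, beginning 109 bases before it. The full CRE was found once in Dusp1, beginning 143 bases before the start, and at 2 places in Dusp8, beginning 107 and 63 bases before it. Of 32851 RefSeq promoter windows of the same length, 6.02% hold the E-box and 1.55% the full CRE. The shorter CRE core TGACG, searched on both strands and contained in each full CRE, occurs in 17.8% of windows and, without a full CRE, also in the windows of Dusp5 and Dusp16. Dusp6, Dusp7, Dusp10 and Dusp14 hold none of these letters in this window. A match is a description of the sequence and not a measured site.

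As a family the phosphatases did not shift one way. Of the 9 genes read, 4 had a mean ratio above 0 and 5 below, with a median of -0.12 against 0.00 over all genes tested; with the scanner software's own log ratios the members' median was above 0, at 0.09. Dusp4, Dusp6 and Dusp8 were above 0 on all 3 arrays, and Dusp1, Dusp7 and Dusp16 below 0 on all 3, while Dusp2, Dusp10 and Dusp14 had both signs; over all genes 17.5% were higher on every array and 17.8% lower, 35.2% together. Mean ratios of 0.5 or more in size were found for 3 members, against 9.70% of all genes. In the fit across all genes (limma, adjusted p under 0.05), which called 0.174% of genes (0.0672% higher and 0.106% lower in cKO), 0 members were called and 3 had an unadjusted p under 0.05, against 12.3% of all genes. Because the members were chosen on this same contrast, nothing is read from these counts.

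**Figure D1:**
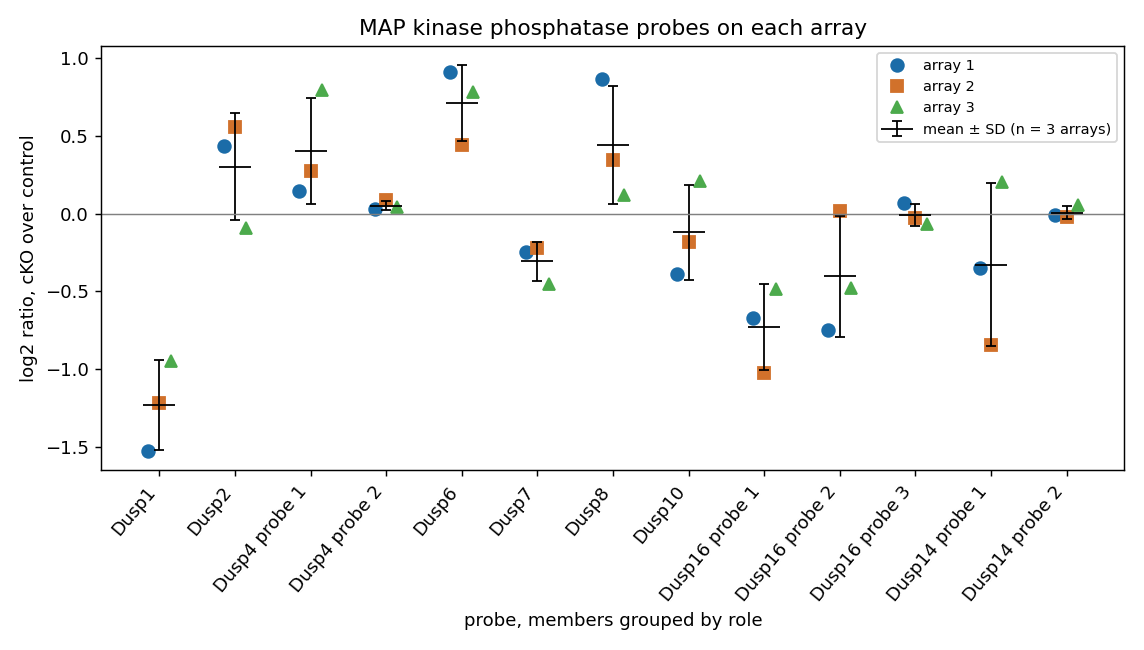
Log2 ratio of cKO over control for each of the 13 probes (x axis) on arrays 1 to 3 (points), with the mean and SD as bars (n = 3). Dusp1 lies between -1.53 and -0.95 and Dusp6 between 0.44 and 0.91, while the second probes of Dusp4 and Dusp14 and the third of Dusp16 lie close to 0.

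Among the nuclear, inducible enzymes, Dusp1 (MKP-1, an immediate early gene that dampens p38, JNK and ERK) had the largest difference of the family. Its probe gave normalised log2 intensities of 11.63, 11.64 and 11.46 in the cKO pools of arrays 1 to 3, against 13.15, 12.86 and 12.41 in the control pools. All 3 cKO pools were below all 3 control pools, and the cKO pools lay closer together (SD 0.10) than the control pools (SD 0.38). The ratios were -1.53, -1.22 and -0.95, a mean of -1.23 ± 0.29, or 2.35-fold lower in cKO. With the scanner software's own log ratios they were -1.26, -1.03 and -0.70, and the mean was -1.08 within the slide of arrays 2 and 3. Dusp1 was bright, at 78.0 to 93.3 times the local background in the cKO channel and 98.0 to 231.6 times in the control channel, and unsaturated.

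The 3 genes whose ratios lay nearest to those of Dusp1 over the 3 arrays, by Euclidean distance, were Bean1 (distance 0.15), Rgs7 (0.16), a regulator of G protein signalling, and Pank1 (0.22), a kinase of coenzyme A synthesis. Within a distance of 0.5 lay 37 of the genes tested. The nearest other phosphatase, Dusp16, lay at 0.99. Luteal and granulosa cell markers had medians of -0.29, -0.13 and -0.05 over the 13 genes, in the order of the Dusp1 ratios, while the log2 ratios of their summed intensities, -0.07, -0.09 and -0.30, ran in the opposite order. The summed intensity was 164419 to 183204 in cKO pools and 173000 to 225813 in control pools. None of these markers was at background, and their part in the Dusp1 ratios was not tested.

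Dusp2 (PAC-1, best known from activated lymphocytes and myeloid cells) was higher in cKO on arrays 1 and 2 only. Its levels were 9.04, 8.54 and 8.16 in the cKO pools, against 8.61, 7.98 and 8.25 in the control pools. The groups overlap. The ratios were 0.43, 0.56 and -0.09, a mean of 0.30 ± 0.34, so the mean is smaller than the spread between arrays.

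Immune cell markers also had medians above 0 on arrays 1 and 2 and below 0 on array 3. This pattern was not particular to them. Smooth muscle markers (0.19, 0.88 and -1.09) and endothelial markers (0.06, 0.09 and -0.27) had the same signs. The median of 14 macrophage markers was 0.82, 0.71 and -0.46, and their summed intensity ran over 40347 to 109234 in cKO pools and 24565 to 37973 in control pools, with log2 ratios of the sums of 2.15, 1.09 and 0.09. The median of 10 lymphocyte markers, of 11 listed, was 0.14, 0.15 and -0.13, with sums of 1743 to 2246 in cKO pools and 1932 to 2029 in control pools. No tested marker of either list fell to background on any array, and the part of these cells in the Dusp2 ratios was not tested.

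Dusp4 (MKP-2) is read by 2 probes that differ in brightness. The brighter gave 7.95, 7.65 and 8.31 in the cKO pools, against 7.80, 7.37 and 7.51 in the control pools. Levels of the groups overlap, although the cKO pool was the higher of the pair on every array. The ratios were 0.15, 0.27 and 0.79, a mean of 0.40 ± 0.34 in which array 3 stands highest. The dimmer probe passed the background test for control RNA on only 1 array and gave 0.03, 0.09 and 0.04. With the scanner software's log ratios the brighter probe was at -0.16 on array 1 and 0.25 on average.

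**Figure D2:**
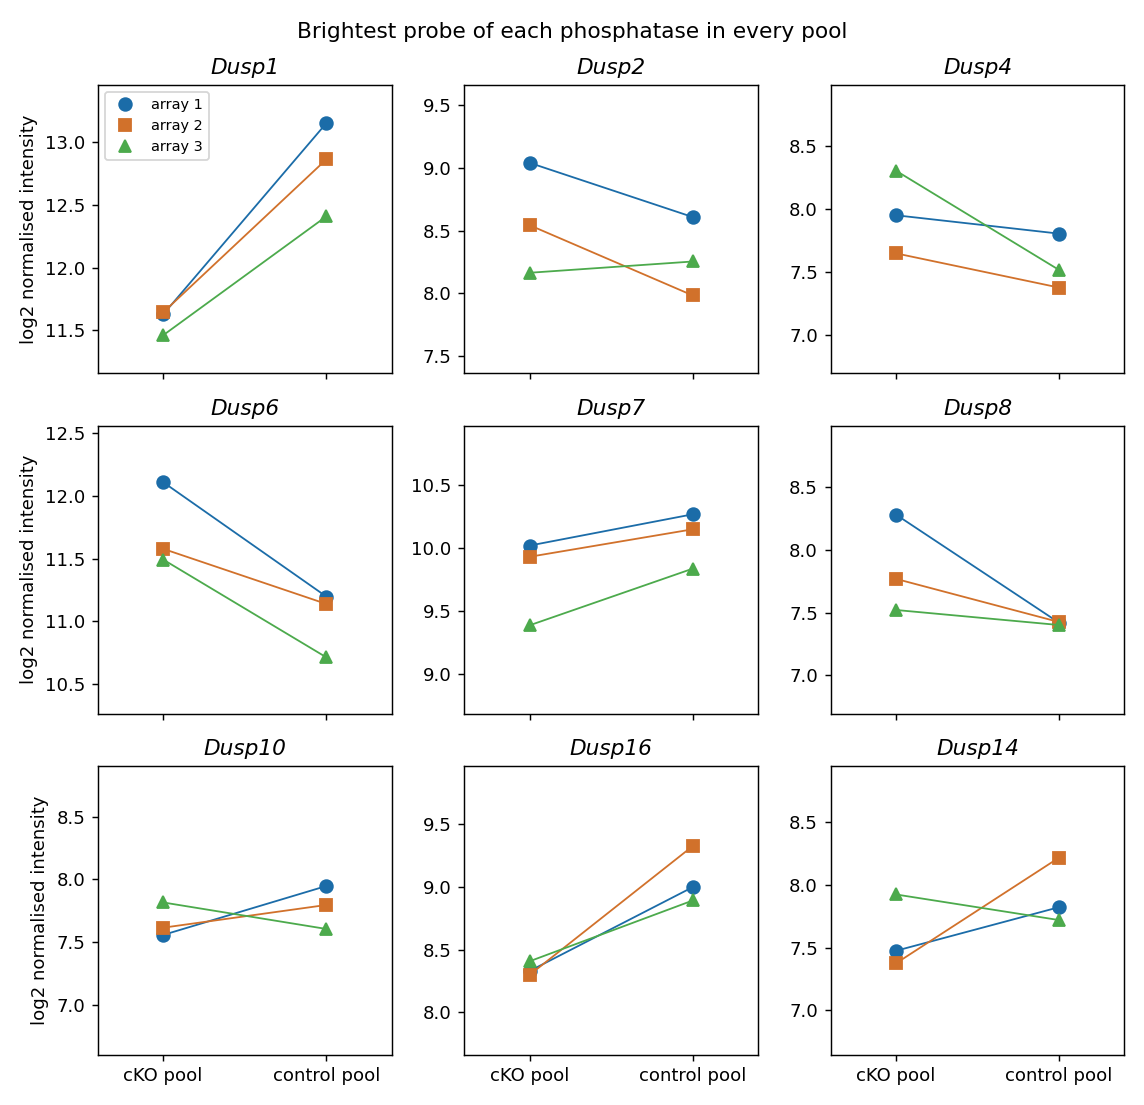
Normalised log2 intensity of the brightest probe of each member in the cKO pool (left) and the control pool (right) of each array, joined by a line per array; all panels span the same range of log2 units. For Dusp1 and Dusp16 all cKO pools lie below all control pools, for Dusp6 and Dusp8 all lie above, and the other panels overlap.

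Of the cytoplasmic ERK phosphatases, Dusp6 (MKP-3, a feedback inhibitor that is itself induced by ERK activity) was higher in cKO on every array. Its levels were 12.11, 11.58 and 11.49 in the cKO pools, against 11.20, 11.14 and 10.71 in the control pools. All 3 cKO pools were above all 3 control pools. The ratios were 0.91, 0.44 and 0.78, a mean of 0.71 ± 0.24, or 1.64-fold higher. The scanner software's log ratios gave 0.57 ± 0.23, and the mean within the slide of arrays 2 and 3 was 0.61. Dusp6 and Dusp1, the brightest probes of the family by their signal over background, therefore had ratios of opposite sign on each of the 3 arrays.

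Dusp7 (MKP-X), the close relative of Dusp6, did not share its sign under the processing used here. Its levels were 10.02, 9.93 and 9.38 in the cKO pools, against 10.27, 10.15 and 9.84 in the control pools. The groups overlap, and on every array the cKO pool was the lower of the pair. The ratios were -0.25, -0.22 and -0.45, a mean of -0.31 ± 0.13, the smallest spread among the members' brightest probes. The scanner software's log ratios turned the sign on arrays 1 and 2 (0.19, 0.12 and -0.02) and gave a mean of 0.09, so the direction of Dusp7 depends on the normalisation.

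Among the phosphatases of JNK and p38, Dusp16 (MKP-7) was lower in cKO by its brightest probe. That probe gave 8.33, 8.30 and 8.41 in the cKO pools, against 9.00, 9.33 and 8.89 in the control pools. All 3 cKO pools were below all 3 control pools, and the cKO pools lay within a narrow range (SD 0.06, against 0.23 in control pools). The ratios were -0.67, -1.03 and -0.49, a mean of -0.73 ± 0.28, or 1.66-fold lower.

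The other Dusp16 probes did not repeat this value. The second probe gave -0.75, 0.01 and -0.48, a mean of -0.40 ± 0.39, with overlapping groups. The third, whose control RNA signal cleared background on only 1 array, gave a mean of -0.01 ± 0.07. The mean of all 3 probes was -0.38. The 3 probes are annotated to different transcript records, and whether they read the same transcripts was not tested.

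Dusp8, a JNK and p38 phosphatase best known from brain and heart, was higher in cKO with a wide spread. Its levels were 8.28, 7.77 and 7.52 in the cKO pools, against 7.42, 7.43 and 7.40 in the control pools. All 3 cKO pools were above all 3 control pools, narrowly so for the cKO pool of array 3. The control levels were nearly equal after normalisation (SD 0.01, against 0.39 in cKO pools). Before it, the probe was at 3.8, 2.7 and 3.1 times the local background in the control channel of arrays 1 to 3, and at 9.4, 5.5 and 4.2 times in the cKO channel. The part of the offset and the scaling of arrays in the small control SD was not tested. The ratios were 0.86, 0.34 and 0.12, a mean of 0.44 ± 0.38, and the mean within the slide of arrays 2 and 3 was 0.23. A second probe, filed under the older name 5530400B01Rik and so outside the rule, gave 1.05, 0.53 and 0.09, the same order of arrays. With the scanner software's log ratios the mean was 0.93 ± 0.51.

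Dusp10 (MKP-5) showed no steady difference. Its levels were 7.56, 7.61 and 7.82 in the cKO pools, against 7.95, 7.80 and 7.60 in the control pools. The groups overlap and the sign turns between arrays, with ratios of -0.39, -0.18 and 0.21 and a mean of -0.12 ± 0.31. The sign of the mean also turned in 2 of the 10 alternatives, without replicate 1 (0.02) and after median centring (0.05). Median centring shifted the median of all genes to 0.12, which is above the Dusp10 value.

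The atypical member Dusp14 (MKP-6) varied most between arrays. Its brighter probe gave 7.48, 7.38 and 7.92 in the cKO pools, against 7.82, 8.22 and 7.72 in the control pools. The groups overlap, and the cKO pool was the higher of the pair on array 3 only. The ratios were -0.35, -0.84 and 0.20, a span of 1.05 and a mean of -0.33 ± 0.52. The dimmer probe, at 1.67 to 1.98 times the local background in the cKO channel, stayed between -0.02 and 0.05.

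Levels in all 3 cKO pools and all 3 control pools stayed apart for 4 of the 9 members, Dusp6 and Dusp8 with cKO above and Dusp1 and Dusp16 with cKO below. Over all genes tested 10.0% lay with cKO above and 9.84% with cKO below, 19.9% together. By the brightest probes, mean ratios of both signs were found within each usual class. The nuclear group held Dusp1 below 0 and Dusp2 (of mixed sign between arrays) and Dusp4 above. The ERK group held Dusp6 above and Dusp7 below (above with the scanner software's log ratios). The JNK and p38 group held Dusp8 above and Dusp10 (of mixed sign) and Dusp16 below. The second Dusp4 probe (0.05) and the third Dusp16 probe (-0.01) lay close to 0. With so few genes in a class, and members chosen on this same contrast, nothing is read about the classes. The span between arrays within a member ran from 0.23 (Dusp7) to 1.05 (Dusp14), and the median SD of the members was 0.31, against 0.28 over all genes tested. Arrays also differed for the members together, with medians of -0.25, -0.18 and 0.12.

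**Figure D3:**
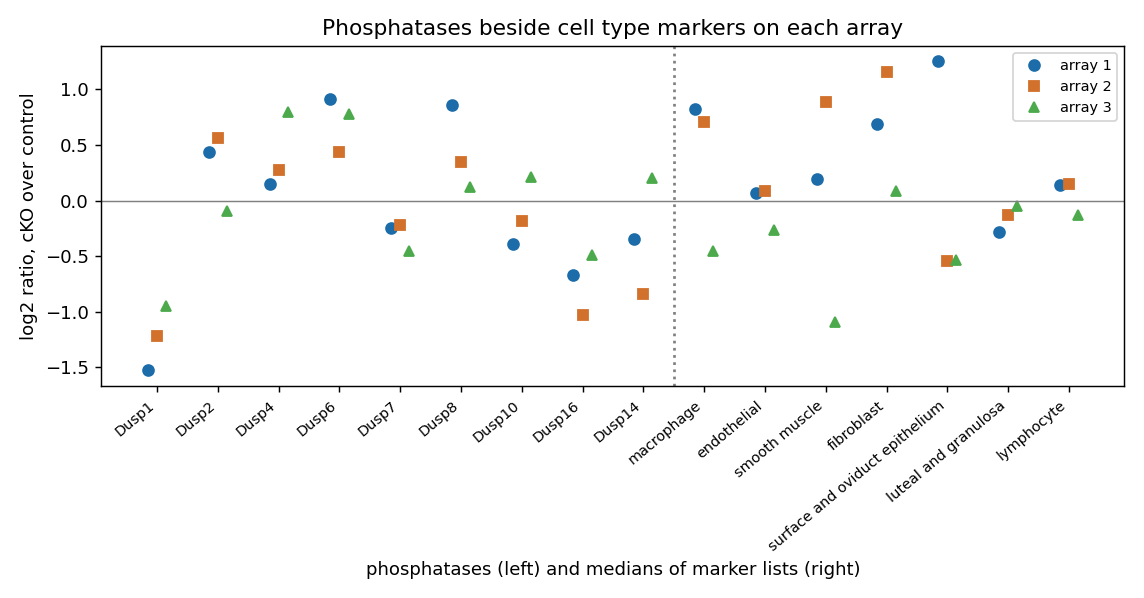
Log2 ratio of cKO over control on arrays 1 to 3 for the brightest probe of each member (left of the dotted line) and the median of each marker list (right). Dusp2 (0.43, 0.56 and -0.09), Dusp7 and Dusp8 are lowest on array 3. So are the medians of macrophage (0.82, 0.71 and -0.46), lymphocyte, endothelial, smooth muscle and fibroblast markers. Dusp1, Dusp4, Dusp10, Dusp14 and Dusp16 have their highest ratio there, as do luteal and granulosa markers.

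Markers of smooth muscle, surface epithelium and fibroblasts also varied between arrays. The median of 7 smooth muscle markers, of 8 listed, was 0.19, 0.88 and -1.09, with a summed intensity of 17950 to 48316 in cKO pools and 19774 to 36017 in control pools. The median of 9 surface and oviduct epithelium markers, of 10 listed, was 1.25, -0.54 and -0.53, with sums of 36298 to 83016 in cKO pools and 41790 to 65261 in control pools. Dusp6 and Dusp8 were also highest on array 1, as were the macrophage markers, but both genes were above 0 on all 3 arrays. The median of 8 fibroblast markers was 0.69, 1.16 and 0.09, with sums of 41258 to 62277 in cKO pools and 34416 to 39549 in control pools. The median of 11 endothelial markers was 0.06, 0.09 and -0.27, with sums of 13195 to 17477 in cKO pools and 16151 to 16921 in control pools. None of the tested markers was at background, and the part of these cells in the ratios of the phosphatases was not tested.

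The rest of the MAP kinase pathway was read from 6 lists of genes grouped by their known roles. The lists were chosen with earlier results of these data known, so their counts are a description. Together they hold 118 tested genes. By limma with Benjamini-Hochberg adjustment over all genes, 0 of the 118 passed, against 0.174% of all genes tested. At an unadjusted limma p under 0.05 there were 13 above 0 and 4 below, 17 in all, against 12.3% of all genes tested.

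Among the other DUSPs and slingshot phosphatases, 14 of 19 listed genes were tested, 7 with a mean above 0 and 7 below. Their median was 0.00, and it ran from -0.18 with the scanner software's log ratios to 0.15 after median centring, which shifts all genes upward. Ssh2, a slingshot phosphatase that acts on the actin regulator cofilin, was at 0.44 ± 0.24 (second probe 0.14), and Dusp22, an atypical phosphatase of JNK signalling, at 0.11 ± 0.11 (second probe 0.24). Ssh3 was at -0.47 ± 0.83. Dusp28 was lowest, with -0.52, -0.61 and -0.89, a mean of -0.67 ± 0.20 (limma adjusted p = 0.252).

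The kinases that the phosphatases act on, and those above them, differed between arrays and settings as lists. Of 24 genes of the ERK cascade 13 had a mean above 0 and 11 below, with a median of 0.06 (0.24, 0.09 and -0.01 on arrays 1 to 3) that ran from -0.04 to 0.23 over the alternatives. Nras, a RAS GTPase, was at 0.40 ± 0.50 with other probes at -0.38 and -0.05, and Rps6ka3, the ERK-activated kinase RSK2, at 0.39 ± 0.06. At the other end stood Hras at -0.50 ± 0.42 and Rps6ka2 (RSK3), which gave -0.74, -0.57 and -0.85, a mean of -0.72 ± 0.14 (limma adjusted p = 0.222). Of 30 genes of the p38 and JNK cascades 14 were above 0 and 16 below, with a median of -0.03 (0.14, 0.02 and -0.33 on arrays 1 to 3) that was 0.17 without array 3 and changed sign in 5 of the 10 alternatives. Map3k3 was at 0.44 ± 0.42 and the JNK scaffold Mapk8ip3 at 0.43 ± 0.97, their second probes at 0.01 and -0.21. Mapk12, a p38 kinase, was at -0.37 ± 0.43 with a second probe at 0.07. Mapk10, the JNK3 kinase, was at -0.63 ± 0.26 (limma adjusted p = 0.281), with a second probe at 0.11.

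Other inhibitors of the pathway included the gene nearest to the threshold in these lists. Errfi1 (MIG6), which binds and blocks the EGF receptor, gave 1.00, 1.30 and 1.51, a mean of 1.27 ± 0.26 (limma adjusted p = 0.124). Spry4, a Sprouty inhibitor of RAS signalling, was at 0.55 ± 0.45. The RAF inhibitor protein Pebp1 was at -0.23 ± 0.69 (second probe -0.14) and the RAS GTPase-activating protein Rasa1 at -0.46 ± 0.33. Of the 17 genes tested of 20 listed, 10 had a mean above 0 and 7 below, with a median of 0.08. Errfi1 and Dusp6, both feedback inhibitors, were above 0 on all 3 arrays, and Dusp1 was below 0 on all 3.

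The EGF family, which relays the ovulatory signal to ERK, had no tested gene of 1 sign on all 3 arrays, against 35.2% of all genes. All means but that of Erbb3 lay between -0.10 and 0.07, and the ovaries were taken at 3.5 days post copulation. Nothing is therefore read from this count about the relay at ovulation. Of 14 listed genes 10 were tested, with a median of -0.04 that ran from -0.16 to 0.13 over the alternatives. Their means ran from Erbb3, at 0.38 ± 0.60, and Ereg, at 0.07 ± 0.12, down to Btc at -0.09 ± 0.15 and Nrg4 at -0.10 ± 0.20.

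Genes commonly read as outputs of ERK had a median above 0 on every array, but a log2 ratio of summed intensities above 0 only on arrays 1 and 2 (0.49, 0.41 and -0.13). Of the 23 tested of 24 listed, 19 had a mean above 0 and 4 below, and 11 were above 0 on all 3 arrays, against 17.5% of all genes; the median was 0.19, with 0.26, 0.24 and 0.09 on arrays 1 to 3. The transcription factor Egr2 gave 1.53, 0.77 and 1.31, a mean of 1.20 ± 0.39 (limma adjusted p = 0.189), and Egr3 a mean of 0.86 ± 0.62 (limma adjusted p = 0.333). The fibroblast markers also had medians above 0 on all 3 arrays (0.69, 1.16 and 0.09), and 2 of the ERK-responsive genes were dim in control RNA on at least 1 array; the part of either in these ratios was not tested. Fosl2 was at -0.28 ± 0.44, with a second probe at -0.03, and Phlda1 at -0.33 ± 0.44. At an unadjusted limma p under 0.05 there were 8 above 0 and 0 below, against 12.3% of all genes in either direction, and by limma's adjusted p 0 passed. Because this list was chosen with earlier results of these data known, nothing is read from its counts. Dusp1, which is often induced with the early growth response genes, had a ratio opposite in sign to those of Egr2 and Egr3 on each array, while that of Dusp6 had the same sign as theirs.

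**Figure D4:**
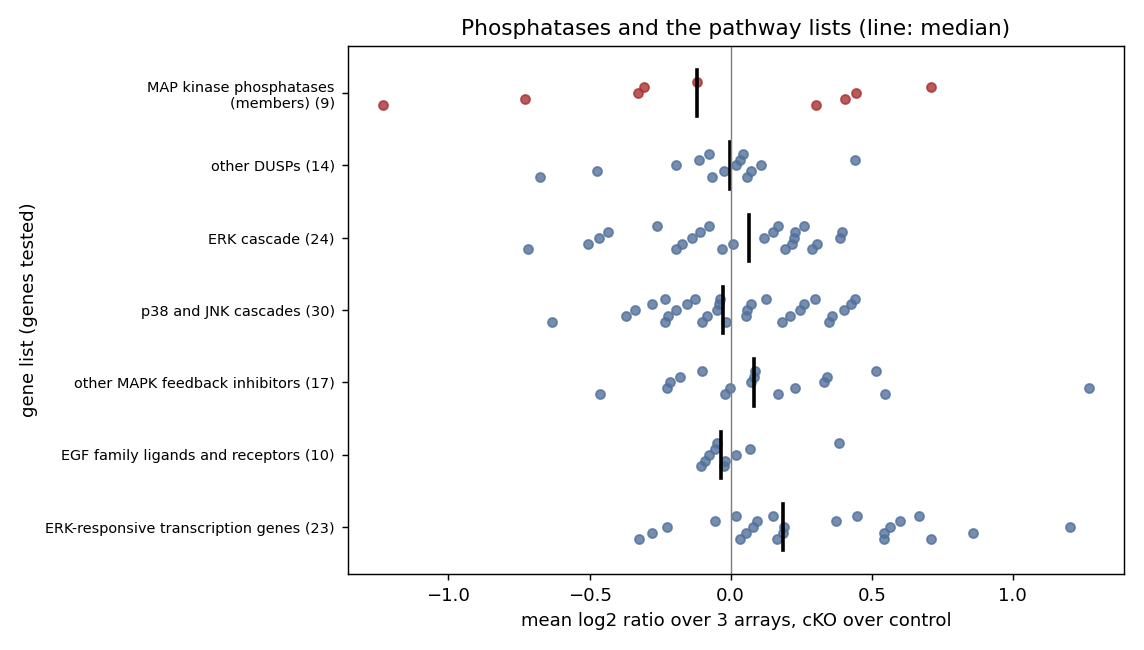
Mean log2 ratio of cKO over control (x axis, 3 arrays) for each gene of the phosphatase family and of the 6 pathway lists (rows, with the number of genes tested), with a line at each median. Medians run from -0.12 for the phosphatases to 0.19 for the ERK-responsive genes, and Dusp1 at -1.23 is the lowest point plotted.

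**Figure D5:**
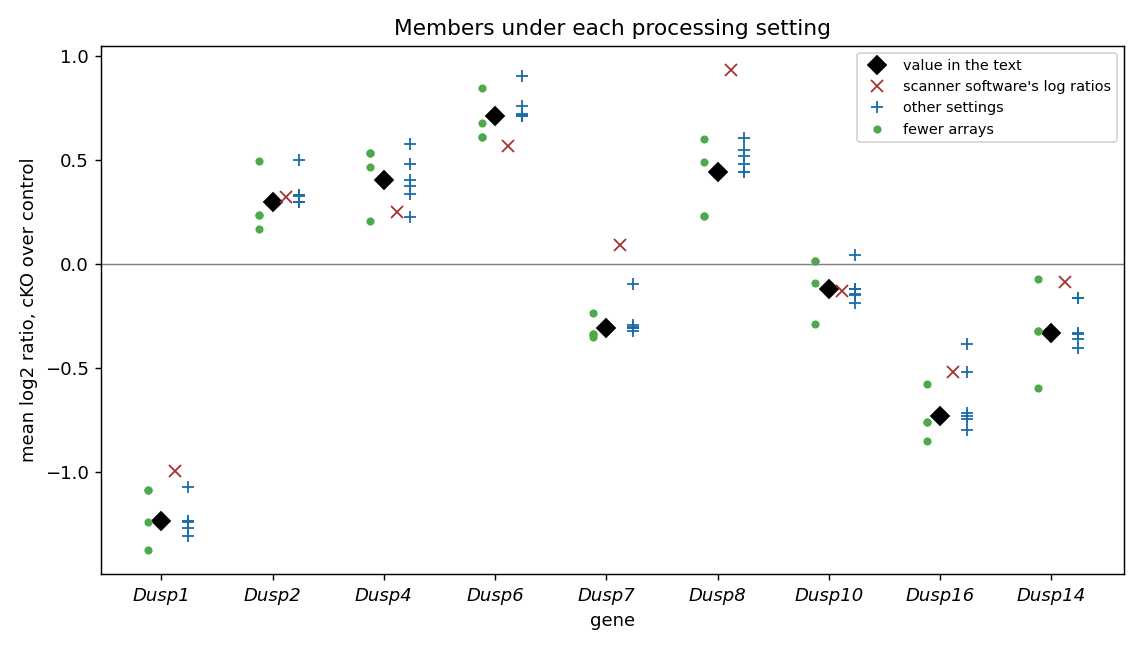
Mean log2 ratio of cKO over control for the brightest probe of each member as reported (diamond), with the scanner software's log ratios (cross), with fewer arrays (dots) and under the other settings (plus signs). The plus signs include the mean over all kept probes of a gene in place of its brightest. Dusp1 stays between -1.37 and -0.99 and Dusp6 between 0.57 and 0.90, while Dusp7 and Dusp10 reach both sides of 0.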

How the data were processed

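Per the file headers, the authors scanned each array to an intensity for every spot and its surround with Feature Extraction 9.1.3.1 (Agilent). Its log10 ratio, deposited in the same files, divides the red (control) by the green (cKO) signal after background correction, detrending and dye normalisation, for which the headers list LOWESS settings; the deposited value table holds identical numbers (largest difference 0). No further step by the authors is given in the sources used here.

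For the log2 ratios used here, computed from the deposited intensity values, background was corrected by normexp (offset 50; spot means, local medians) and dyes were normalised by loess within arrays, with control spots at weight 0, in limma 3.58.1 under R 4.3.3; outlier spots were left out and spots of a probe averaged. The offset pulls dim probes toward 0. Probes well above background in 1 channel on all 3 arrays were kept, and a gene was read by its brightest probe. Pool levels are log2 intensities after Aquantile scaling of the arrays. Ratios over 17853 genes were tested against 0 (lmFit, eBayes, two-sided, Benjamini-Hochberg, 0.05). Probes were named by RefSeq accession (26788 spots), symbol (6252) or synonym (1810); 8529 kept the file's name.

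Members and lists were chosen with earlier results of these data known. Named were all members and, of each pathway list, the 2 highest and the 2 lowest genes tested, and the 3 genes nearest to Dusp1. Each pool holds 3 animals, so p-values reflect the spread between pools.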

Additional observations from a re-analysis of the deposited data

How the results depend on the processing

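The fit within the slide of arrays 2 and 3 is the fit without replicate 1 and is counted once. Of 90 recalculated member means (9 genes under 10 alternatives), 86 lay within 1 SD of the value given and 3 had another sign: Dusp7 with the scanner's log ratios (0.09), and Dusp10 after median centring (0.05) and without replicate 1 (0.02). The 4 that moved further were Dusp7 with the scanner's log ratios and after median centring (-0.10), Dusp8 with the scanner's log ratios (0.93) and Dusp16 by the mean of its probes (-0.38). Many of the 90 could not move by 1 SD. Leaving out 1 of 3 arrays, or taking the slide as a block, cannot shift a mean that far. Without the filter on dim probes no member's value changed, and averaging probes changed only Dusp4, Dusp14 and Dusp16. The 86 are therefore not read as a measure of stability. The members' median of -0.12 was 0.0945 with the scanner's log ratios and ran from -0.23 to 0.02 with an array left out; median centring (0.05) also shifted the median of all genes to 0.12, so that members are to be read against it. Calls over all genes, 31 as reported, were 53 with the scanner's log ratios, 55 with an offset of 16, 48 with the slide as a block, 1 after median centring, 1 within the slide of arrays 2 and 3, 0 when the spread of each array was made equal (limma, with 2299 genes at an unadjusted p under 0.05) and 0 without a filter on dim probes (3181), and ran from 0 to 20 with an array left out (0 without replicate 3, with 4784 at an unadjusted p under 0.05, 1 without replicate 1 and 20 without replicate 2). No pathway gene was called under any of the 10 alternatives by limma, but those with 0 calls over all genes could call no pathway gene. The ratio within each spot already pairs the genotypes. With 3 arrays, small differences of dim probes (Dusp4, Dusp14 and Dusp16, their dimmer probes) are not resolved, and a difference that was not called is not shown to be absent.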
